A study of Mus musculus with 50 samples.

Results

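The 8 genes followed here are those by which lymphatic endothelial cells are commonly recognised, measured across mouse lymph nodes: Prox1, Flt4, Pdpn, Lyve1, Ackr4, Reln, Foxc2 and Mmrn1. They were taken from the table by gene name, from a list drawn up with earlier results of these data known, and are 8 of the 56600 gene entries in the deposited count table. Each of the 8 names matched 1 entry, and all 8 passed the filter on low counts that left 18387 genes to test. The data were 50 poly(A) RNA sequencing libraries of whole nodes draining the duodenum, jejunum, ileum or colon, or of inguinal nodes, which drain skin. The mice were labelled C57B6 and were offspring of C57BL/6J dams, taken at postnatal day 56 from the second and the third litters. Dams ate a vitamin A deficient diet or an otherwise matched control diet holding vitamin A at 20 IU/g (here the sufficient diet), begun 3 weeks before breeding. Each diet and node had 5 libraries. All deficient mice were female, whereas sufficient replicates 1 and 2 of each node were female and replicates 3, 4 and 5 male. A litter had 1 diet, so litter and dam cannot be told apart from diet, and since no label says which nodes came from one mouse, the p-values below reflect variation among libraries, which may be partly technical. The study's design names the question as the role of vitamin A in how gut-draining nodes differ by region.

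Lymphatic endothelial cells line the vessels that bring tissue fluid, antigen and cells to a node and the sinuses through which lymph crosses it. Their identity is set and kept by the homeobox factor Prox1, which maintains expression of Flt4, the receptor (VEGFR3) of the growth factor VEGF-C, and signalling through that receptor in turn maintains Prox1. Vitamin A is the source of retinoic acid, the ligand of nuclear receptors, and retinoic acid takes part in lymphatic development in the mouse embryo. Within a node, cells of the ceiling and floor of the subcapsular sinus and of the medullary sinuses differ in the genes they express, so a whole-node library averages over them and over a large excess of lymphocytes. In such bulk samples, fewer lymphatic cells and less RNA per lymphatic cell cannot be told apart.

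Estimated counts per library totalled between 5335369 and 8904722 with a median of 7640371. Lyve1 had 359 to 2696 estimated counts per library and Foxc2, the least covered member, had 5.95 to 24.0, so that changes in Foxc2 are measured with the least precision. The tissue label was checked against lymph node genes, and in every library the T cell gene Cd3e lay at 66.6 CPM (the count per gene scaled to library size after TMM normalisation) or above and the stromal chemokine Ccl21a at 869 CPM or above. There were 2 kinds of library that stood apart. A set of 10 deficient libraries, among them 3 of 5 colonic and 3 of 5 inguinal, had 1.03 to 1.70% of their counts in the gene Gm19220, against 5.37 to 9.83% in the other 40. In addition 5 duodenal libraries, 3 deficient and 2 sufficient, had more than 1% of their counts in pancreatic enzyme genes, with maxima of 19.1% in deficient and 20.8% in sufficient duodenal nodes. Calls below that changed without either kind of library are given both ways.

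All 8 genes are protein coding. By Ensembl identifier in GENCODE M21 (GRCm38), Prox1 lies at chr1:190118035-190170714 on the minus strand, Flt4 at chr11:49609263-49652739 on the plus strand, Foxc2 at chr8:121116171-121118895 on the plus strand and Lyve1 at chr7:110850607-110863239 on the minus strand. Pdpn lies at chr4:143267431-143299564, Ackr4 at chr9:104084157-104126933 and Reln at chr5:21884454-22344702, all on the minus strand, and Mmrn1 at chr6:60924976-60989378 on the plus strand. The build of the deposited counts is not settled by the submitters' processing notes, which name GRCm39 and mm10 without a role. The RefSeq promoter table used here (GRCm38.p6, 250 bases before to 50 bases after each start) held 6 of the 8 members. Those not held are Lyve1 and Foxc2.

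Of the members with an entry, the 3 with the most calls over all comparisons made here are printed. Capitals mark a match to a searched motif, and all 4 stretches run 5′ to 3′ in the direction of transcription. They are Prox1 with its first start (chr1:190170778-190171077, minus strand) and its other start (chr1:190169466-190169765, minus strand), Flt4 (chr11:49609429-49609728, plus strand) and Pdpn (chr4:143299515-143299814, minus strand).
Prox1 start 1: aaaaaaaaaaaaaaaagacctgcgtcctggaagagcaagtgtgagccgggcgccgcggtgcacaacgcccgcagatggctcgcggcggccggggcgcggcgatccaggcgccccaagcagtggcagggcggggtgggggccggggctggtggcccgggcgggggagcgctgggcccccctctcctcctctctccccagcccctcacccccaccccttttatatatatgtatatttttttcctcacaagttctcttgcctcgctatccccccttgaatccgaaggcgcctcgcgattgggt
Prox1 start 2: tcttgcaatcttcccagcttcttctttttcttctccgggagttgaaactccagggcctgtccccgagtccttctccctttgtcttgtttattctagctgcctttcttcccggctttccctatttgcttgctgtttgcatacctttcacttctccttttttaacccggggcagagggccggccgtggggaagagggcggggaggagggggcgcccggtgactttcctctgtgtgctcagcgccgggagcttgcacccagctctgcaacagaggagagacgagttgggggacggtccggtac
Flt4: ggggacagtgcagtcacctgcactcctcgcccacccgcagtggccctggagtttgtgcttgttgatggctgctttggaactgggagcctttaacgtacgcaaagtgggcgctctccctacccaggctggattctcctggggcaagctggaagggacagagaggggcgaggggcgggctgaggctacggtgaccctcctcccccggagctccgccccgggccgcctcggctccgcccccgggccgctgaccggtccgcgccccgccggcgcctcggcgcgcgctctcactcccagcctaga
Pdpn: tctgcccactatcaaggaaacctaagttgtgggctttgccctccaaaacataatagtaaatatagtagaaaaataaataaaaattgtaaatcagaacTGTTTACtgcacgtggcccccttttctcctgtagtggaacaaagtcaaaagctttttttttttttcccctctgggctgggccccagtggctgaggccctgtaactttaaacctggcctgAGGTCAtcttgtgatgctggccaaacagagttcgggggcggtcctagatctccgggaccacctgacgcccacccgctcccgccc

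In all, 5 motifs were searched on both strands. They were AGGTCA, the half-site bound by retinoic acid receptors and other nuclear receptors, AGATAA of erythroid and endothelial zinc finger factors, GTAAACA of forkhead factors, ACAATGG of the SOX family and CCGGAAG of the ETS family. The Pdpn promoter held AGGTCA on its own strand at positions -34 to -29 from the start and GTAAACA on the opposite strand, printed as TGTTTAC, at -153 to -147. Those motifs occurred in 16.3% and 3.65% of the 32851 promoters in the table. Among members not printed, the Reln promoter held CCGGAAG on the opposite strand at -186 to -180, a motif found in 8.86% of promoters, while AGATAA occurred in 11.2% and ACAATGG in 3.66%. No match lay in the windows of Prox1, Flt4, Ackr4 and Mmrn1, which says only that these letters are not in these 300 bases.

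**Figure D1:**
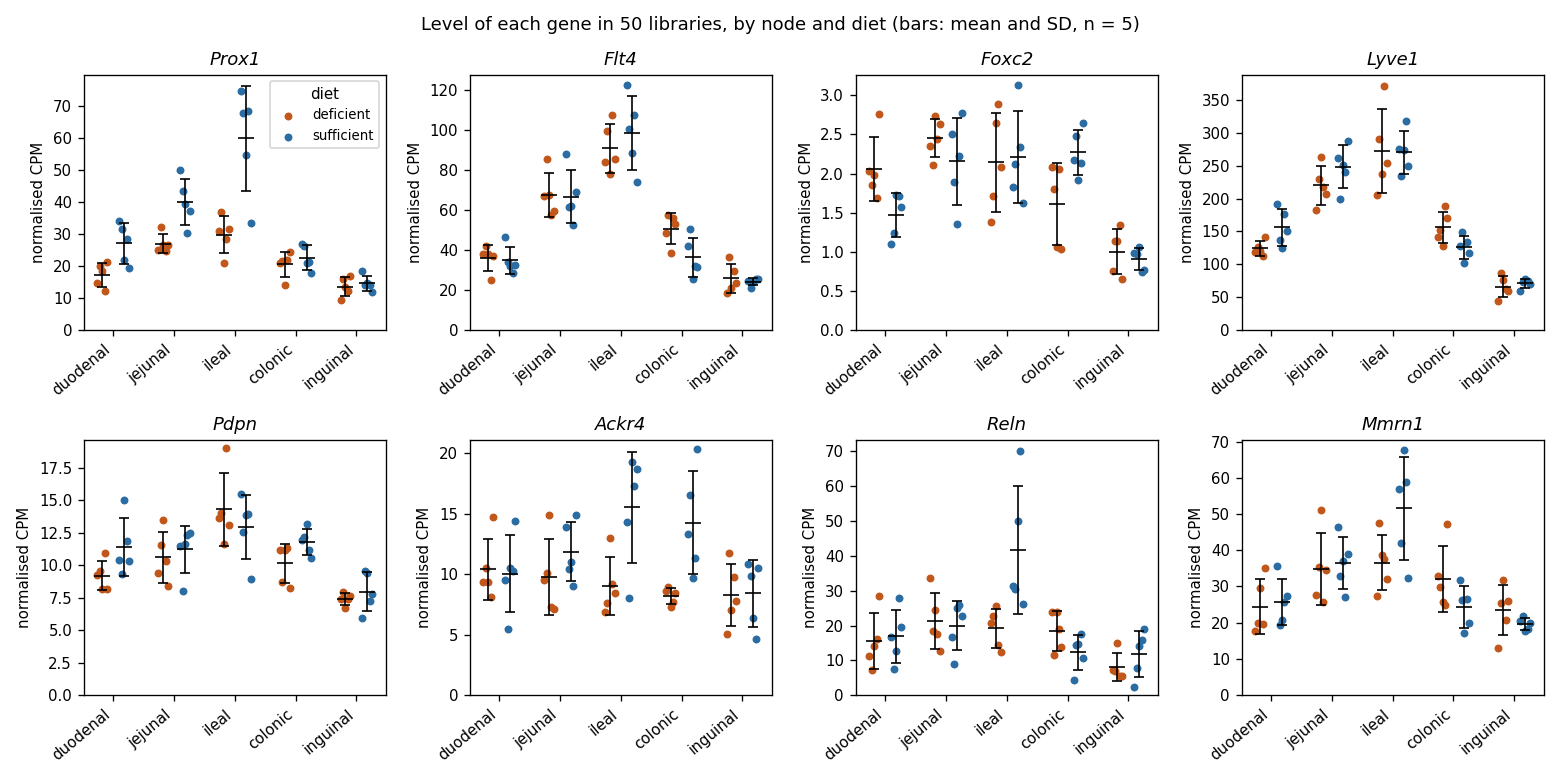
Level of each of the 8 genes in normalised CPM (vertical axes, linear, from 0) in 50 libraries, by node and diet (deficient in orange left of sufficient in blue). Points are libraries and bars the mean and SD of 5; Prox1 reaches 75.0 CPM in sufficient ileal nodes, while no deficient library exceeds 37.1 CPM.

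The first question was how node position relates to these genes, and gut-draining nodes (the mean of duodenal, jejunal, ileal and colonic) were set against inguinal nodes within each diet. The lymphatic genes were higher in gut-draining nodes on both diets. On the deficient diet 6 of 8 members rose, against 3.71% of all genes tested that were called higher, and the median log2 fold change of the 8 was 0.89, against -0.01 over all genes. On the sufficient diet 8 of 8 rose, against 9.69% of all genes called higher, with a median of 0.99 against -0.01. Fold changes come from 1 model over all libraries with a term for sex, so they can differ from a ratio of the means given here.

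Lyve1, a receptor for the matrix sugar hyaluronan that some macrophages also carry, had the highest fold change on both diets. In inguinal nodes it had 45.2, 87.0, 76.1, 63.5 and 59.0 CPM in deficient replicates 1 to 5, against 59.6, 74.1, 77.8, 74.6 and 70.0 CPM in sufficient replicates 1 to 5. Each of the 40 gut-draining libraries lay above all inguinal libraries of its diet, from 113 CPM upwards in deficient and from 102 CPM upwards in sufficient mice. The log2 fold change was 1.48 ± 0.13 (SE) on the deficient diet (adjusted p = 4.23e-12) and 1.42 ± 0.13 on the sufficient diet (adjusted p = 7.74e-12).

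Flt4 was likewise lowest in inguinal nodes on both diets. It averaged 26.0 ± 7.2 CPM in deficient inguinal nodes and 36.3 ± 6.5, 67.5 ± 11.0, 91.2 ± 12.3 and 50.9 ± 7.7 CPM in deficient duodenal, jejunal, ileal and colonic nodes (SD, n = 5 each). In sufficient inguinal nodes its 5 values lay between 21.3 and 25.9 CPM, against 25.6 to 123 CPM in sufficient gut-draining nodes, where 1 colonic library fell inside the inguinal range. Its log2 fold change was 1.16 ± 0.13 on the deficient diet (adjusted p = 1.36e-08) and 1.12 ± 0.13 on the sufficient diet (adjusted p = 1.94e-08).

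The 2 transcription factors rose as well. Prox1 had a log2 fold change of 0.77 ± 0.14 on the deficient diet (adjusted p = 8.61e-05) and 1.24 ± 0.14 on the sufficient diet (adjusted p = 4.44e-09). Foxc2, a forkhead factor needed for lymphatic valves, averaged 1.01 ± 0.29 CPM in deficient and 0.905 ± 0.14 CPM in sufficient inguinal nodes, and 1.61 to 2.45 CPM and 1.47 to 2.27 CPM as group means of gut-draining nodes on those diets. It rose by 1.01 ± 0.20 on the deficient diet (adjusted p = 4.52e-04) and by 1.13 ± 0.21 on the sufficient diet (adjusted p = 7.15e-05), and all 20 sufficient gut-draining libraries lay above the sufficient inguinal ones. Without the 10 libraries low in Gm19220 the deficient Foxc2 call was lost (1.02, adjusted p = 0.0637).

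The other surface proteins were Pdpn and Ackr4. Pdpn (podoplanin), a mucin-like protein that binds CLEC-2 on platelets and is also made by the node's fibroblastic reticular cells, rose by 0.55 ± 0.12 on the deficient diet (adjusted p = 0.00248) and 0.57 ± 0.13 on the sufficient diet (adjusted p = 7.79e-04). Deficient inguinal nodes held 6.68 to 7.97 CPM of Pdpn, below all 20 deficient gut-draining libraries. Without the low Gm19220 libraries the deficient fold change was 0.60 and no longer passed (adjusted p = 0.107). Ackr4, an atypical receptor that removes the chemokines Ccl19 and Ccl21 and marks the ceiling of the subcapsular sinus, had a fold change of 0.17 ± 0.20 on the deficient diet (adjusted p = 0.805). On the sufficient diet it rose by 0.58 ± 0.21 at an adjusted p of 0.0467, a call that held in 10 of 21 alternative analyses and was lost without sufficient replicate 1, 3, 4 or 5 (adjusted p = 0.0622, 0.157, 0.215 and 0.0914), without deficient replicate 1, 2, 4 or 5 (adjusted p = 0.0517 to 0.0592), without the low Gm19220 libraries (adjusted p = 0.0568) and without a filter on low counts (adjusted p = 0.0695).

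The secreted members were Reln and Mmrn1. Reln encodes reelin, an extracellular glycoprotein that lymphatic endothelium of collecting vessels secretes, and it rose by 1.20 ± 0.30 on the deficient diet (adjusted p = 0.00618) and 0.86 ± 0.29 on the sufficient diet (adjusted p = 0.0322). The sufficient call held in 13 of 21 alternatives and was lost without sufficient replicate 1, 2, 3 or 4 (adjusted p = 0.187, 0.0663, 0.061 and 0.115), and the deficient one was lost without the low Gm19220 libraries (1.51, adjusted p = 0.0926). Mmrn1, multimerin 1, which platelets and megakaryocytes also store, rose by 0.74 ± 0.18 on the sufficient diet (adjusted p = 0.00304). On the deficient diet its fold change was 0.43 ± 0.18 (adjusted p = 0.182).

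With the sufficient groups reduced to their 2 female replicates, 5 of the 8 sufficient calls did not pass. Those were Pdpn (0.55, adjusted p = 0.102), Foxc2 (0.92, adjusted p = 0.135), Reln (1.49, adjusted p = 0.103), Mmrn1 (0.75, adjusted p = 0.162) and Ackr4 (0.11, adjusted p = 0.882). Prox1, Flt4 and Lyve1 passed on females only.

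**Figure D2:**
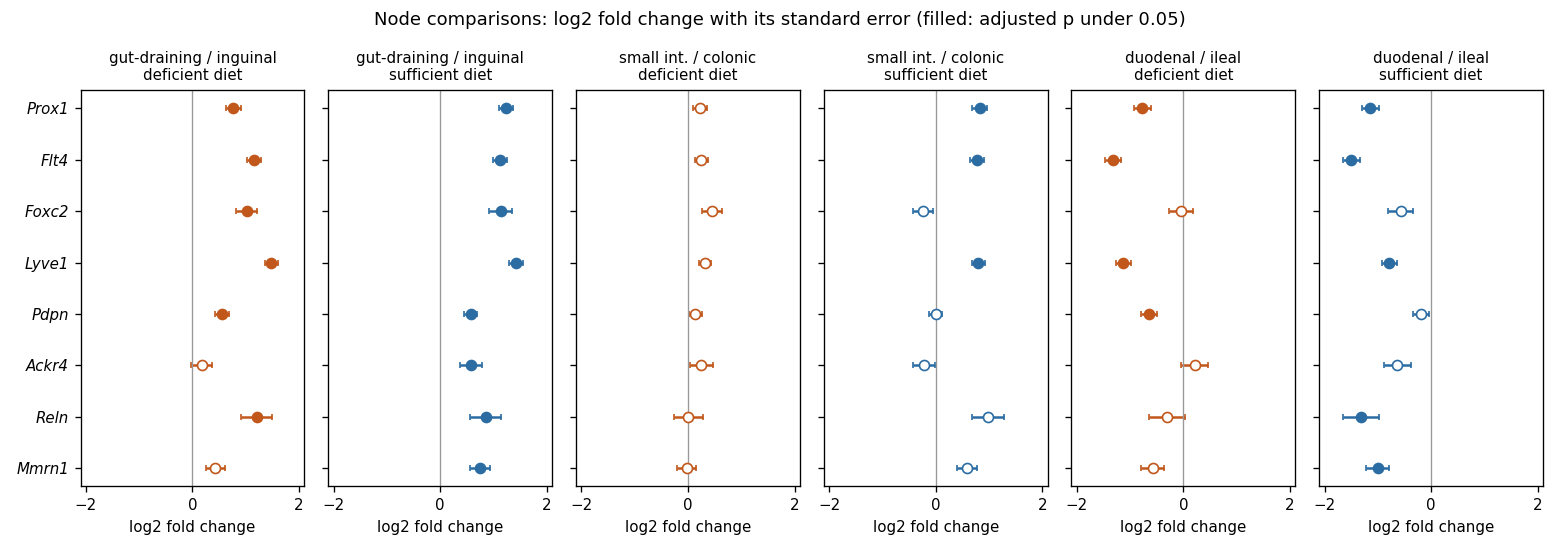
Log2 fold change of the 8 genes (points; bars are 1 standard error) in 3 node comparisons within each diet, filled where the adjusted p is under 0.05. Gut-draining over inguinal values all lie right of 0 (0.17 to 1.48 on the deficient and 0.57 to 1.42 on the sufficient diet), and the filled duodenal over ileal values all lie left of 0.

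Macrophage genes moved in the same direction. Of 11 tested macrophage genes, 7 rose and 1 fell in gut-draining nodes relative to inguinal ones on the deficient diet, and 9 were higher and 2 lower on the sufficient diet. The sum of these 11 genes was 1141 to 3100 CPM in deficient gut-draining and 918 to 1270 CPM in deficient inguinal libraries. On the sufficient diet it was 1515 to 4129 CPM in gut-draining and 876 to 1237 CPM in inguinal libraries. This sum, here and below, holds Marco, which medullary sinus cells also carry, so it is not a measure of macrophages alone. Marco values for deficient mice are given below. B cell genes went the other way, with 7 of 8 lower on the deficient and 8 of 8 lower on the sufficient diet. Of all genes, 3.71% were called higher and 2% lower on the deficient diet, and 9.69% and 7.22% on the sufficient diet. On the sufficient diet 5 of 8 T cell genes were also lower and 4 of 8 adipose genes higher, while no gene of these lists was called on the deficient diet. The blood endothelial sum (10 genes) was 958 to 1110 CPM in sufficient jejunal and 1052 to 1274 CPM in sufficient ileal nodes. Both lay above the 711 to 859 CPM of sufficient inguinal nodes. The other gut-draining groups of either diet overlapped the inguinal nodes of their diet in this sum. The part of these cell types in the rise of the lymphatic genes was not tested.

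Small intestinal nodes (the mean of duodenal, jejunal and ileal) were next set against colonic nodes. On the sufficient diet Prox1, Flt4 and Lyve1 rose and the other 5 members did not pass, where 2.65% of all genes were called higher. Prox1 averaged 27.2, 40.2 and 60.0 CPM in sufficient duodenal, jejunal and ileal nodes, against 22.7 CPM in the colonic group, a log2 fold change of 0.82 ± 0.14 (adjusted p = 7.28e-05). The fold change was 0.77 ± 0.13 for Flt4 (adjusted p = 1.24e-04) and 0.80 ± 0.12 for Lyve1 (adjusted p = 2.47e-05). For none of the 3 were the libraries of the groups fully apart, and none of the 3 passed when the sufficient group was reduced to its 2 female replicates (adjusted p = 0.0713 for Prox1, 0.258 for Flt4 and 0.207 for Lyve1). Reln (0.98 ± 0.30, adjusted p = 0.0521) and Mmrn1 (0.59 ± 0.19, adjusted p = 0.064) lay just short of the threshold. Reln passed in 8 of 21 alternatives, among them the one without the high pancreatic libraries (1.03, adjusted p = 0.0445), and Mmrn1 passed in 5, among them the one without the low Gm19220 libraries (0.60, adjusted p = 0.0343), whereas Foxc2 had -0.24 ± 0.19 and Ackr4 -0.22 ± 0.20.

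On the deficient diet 0 of 8 members passed by edgeR and 0 by DESeq2 in the same comparison, where 1.77% of all genes did, and 2 members had an unadjusted p under 0.05. Lyve1 had a fold change of 0.32 ± 0.12 (adjusted p = 0.209), Flt4 0.25 ± 0.13 (adjusted p = 0.452) and Prox1 0.23 ± 0.13 (adjusted p = 0.566). The difference between diets in this step was tested as an interaction. It was -0.59 ± 0.19 for Prox1 (adjusted p = 0.395), -0.52 ± 0.18 for Flt4 (adjusted p = 0.525) and -0.48 ± 0.17 for Lyve1 (adjusted p = 0.525), so the diets were not shown to differ here, in a test that called 0.0816% of all genes.

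Within the small intestine, duodenal nodes were set against ileal nodes, the nodes of its first and last stretch. Lymphatic genes were lower in duodenal nodes on both diets. On the deficient diet 4 of 8 members fell, against 2.7% of all genes called lower, with a median log2 fold change of -0.61 against 0.01 over all genes. In sufficient mice 5 of 8 fell, against 5.03% of all genes, with a median of -0.90 against 0.01.

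Flt4 fell most. Its duodenal values in replicates 1 to 5 were 38.3, 42.2, 38.4, 25.0 and 37.3 CPM on the deficient diet, against ileal values of 84.4, 99.8, 78.1, 108 and 85.7 CPM. On the sufficient diet the duodenal values were 46.5, 34.4, 32.4, 28.9 and 32.9 CPM, against 123, 101, 88.8, 108 and 74.0 CPM in ileal nodes. On neither diet did the 5 duodenal libraries overlap the 5 ileal ones, and the log2 fold change was -1.32 ± 0.15 on the deficient diet (adjusted p = 6.18e-08) and -1.50 ± 0.16 on the sufficient diet (adjusted p = 1.25e-08).

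Lyve1 behaved likewise. It had 118, 127, 121, 113 and 142 CPM in deficient duodenal nodes, against 205, 290, 237, 371 and 254 CPM in deficient ileal nodes (-1.13 ± 0.14, adjusted p = 4.44e-07). Sufficient duodenal nodes held 191, 138, 125, 177 and 151 CPM, against 275, 234, 274, 318 and 249 CPM in sufficient ileal nodes (-0.79 ± 0.14, adjusted p = 1.99e-04). Again the duodenal and ileal libraries of a diet did not overlap, though the share of all genes separated in this way was not counted. On females only the sufficient Lyve1 value was -0.64 and did not pass (adjusted p = 0.299).

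Prox1 fell by 0.77 ± 0.16 on the deficient diet (adjusted p = 0.00114) and by 1.14 ± 0.16 on the sufficient diet (adjusted p = 3.08e-06). Without the 5 libraries high in pancreatic counts the deficient value was -0.74 with an adjusted p of 0.071. Pdpn passed on the deficient diet (-0.64 ± 0.15, adjusted p = 0.00451), lost that call without the same libraries (-0.72, adjusted p = 0.0605), and had -0.19 on the sufficient diet (adjusted p = 0.53). The 2 secreted proteins passed on the sufficient diet, Mmrn1 at -1.01 ± 0.22 (adjusted p = 0.00177) and Reln at -1.31 ± 0.34 (adjusted p = 0.00847), and Reln lost the call without the high pancreatic libraries (-1.13, adjusted p = 0.0841) and without sufficient replicate 2 (adjusted p = 0.0518) or 3 (adjusted p = 0.0671). On females only neither passed (Mmrn1 -0.85, adjusted p = 0.393, and Reln -1.37, adjusted p = 0.384). Mmrn1 had -0.58 ± 0.22 on the deficient diet (adjusted p = 0.132) and passed without deficient replicate 5 (-0.79, adjusted p = 0.0407). The interactions of this step with diet called 0 of 8 members by edgeR, where 0.223% of all genes were called, and 3 members had an unadjusted p under 0.05.

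Beside these differences, duodenal libraries held more pancreatic transcript than ileal ones, with medians of 1.59% against 0.00207% of counts on the deficient diet and 0.727% against 0.00143% on the sufficient diet. The summed macrophage list also ran lower, at 1385 to 1790 CPM in duodenal against 2223 to 3100 CPM in ileal nodes of deficient mice and 1651 to 2013 CPM in duodenal against 3138 to 4129 CPM in ileal nodes of sufficient mice. Of 8 T cell genes, 7 were higher in duodenal nodes on the sufficient diet and 0 passed on the deficient diet. Of all genes, 3.05% were called higher on the sufficient diet and 5.6% in either direction on the deficient diet. The summed high endothelial venule list was 1461 to 1926 CPM in duodenal against 818 to 1073 CPM in ileal nodes of deficient mice, without overlap, and 665 to 2188 CPM against 588 to 910.3 CPM in those of sufficient mice. The blood endothelial sum was 740 to 900 CPM in duodenal against 1052 to 1274 CPM in ileal nodes of sufficient mice, without overlap. In deficient mice it overlapped (776 to 931 CPM in duodenal, 839 to 1051 CPM in ileal nodes). The part of these contents in the lower lymphatic genes was not tested. Flt4 and Lyve1 were called without the high pancreatic libraries on both diets.

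Ranked by mean level, the ileal node stood highest and the inguinal node lowest for Prox1, Flt4, Lyve1, Pdpn and Mmrn1 on both diets. The ratio of ileal to inguinal means was 2.19 for Prox1, 3.51 for Flt4 and 4.10 for Lyve1 on the deficient diet, and 4.07, 4.05 and 3.79 for the same genes on the sufficient diet. Jejunal nodes came next to ileal nodes for Prox1, Flt4 and Lyve1, and no member was called between ileal and jejunal nodes on either diet. On the sufficient diet Lyve1 was higher in jejunal than in duodenal nodes (248 against 156 CPM, adjusted p = 0.00922) and in colonic than in inguinal nodes (126 against 71.2 CPM, adjusted p = 2.2e-04), while duodenal over colonic nodes did not pass (0.31 ± 0.14, adjusted p = 0.299). Flt4 was higher in jejunal than in colonic nodes (66.9 against 36.5 CPM, adjusted p = 1.73e-04) and was higher in duodenal than in inguinal nodes by a log2 fold change of 0.50 (adjusted p = 0.0345).

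On the deficient diet fewer neighbours were separated. Of the 4 neighbouring steps, Lyve1 had 1 that passed, duodenal over inguinal (124 against 66.2 CPM, adjusted p = 2.24e-05), while the adjusted p of the neighbouring steps ran from 0.273 to 1 for Prox1 and from 0.0663 to 0.266 for Flt4. Over all 10 pairs of nodes and 8 genes, 26 of 80 comparisons passed on the deficient diet by edgeR and 30 by DESeq2. Without the low Gm19220 libraries 18 passed by edgeR, and without the high pancreatic libraries 21.

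Set against inguinal nodes, deficient ileal and jejunal nodes each differed in 6 members, where 6.19% and 6.35% of all genes were called in either direction. Deficient colonic nodes differed from inguinal ones in 3 members (1.97% of all genes) and duodenal ones in 2 (4.66%). Among deficient gut-draining nodes, duodenal nodes differed from ileal ones in 4 members (5.6% of all genes) and from jejunal ones in 3 (1.03%), and ileal nodes from colonic ones in 2 (1.17%). In the other 3 pairs, duodenal against colonic, jejunal against colonic and jejunal against ileal, no member passed by edgeR, where 3.26%, 1.96% and 0.582% of all genes did, and 2, 4 and 3 members had an unadjusted p under 0.05.

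In sufficient mice 39 of 80 comparisons passed by edgeR and 41 by DESeq2. Without the low Gm19220 libraries 39 passed by edgeR, and without the high pancreatic libraries 35. Sufficient ileal nodes differed from inguinal ones in all 8 members (15.9% of all genes called), jejunal ones in 6 (16.9%), colonic ones in 5 (4.25%) and duodenal ones in 4 (10.8%). Duodenal nodes differed from ileal ones in 5 members (8.07%) and from jejunal ones in 3 (2.57%), ileal nodes from colonic ones in 5 (5.03%) and jejunal nodes from colonic ones in 3 (3.19%). Between duodenal and colonic nodes (2.9%) and between jejunal and ileal nodes (0.511%) no member passed by edgeR, and 3 and 4 members had an unadjusted p under 0.05. Of the 65 calls on both diets, Prox1 made 13, Flt4 14 and Lyve1 15. Ackr4 made 1, in sufficient ileal against inguinal nodes, and its deficient group means lay between 8.18 and 10.4 CPM in all 5 nodes.

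The other question was what the deficient diet did within a node. Prox1 was lower in deficient than in sufficient mice in duodenal, jejunal and ileal nodes, and it was the 1 member of 8 called in each of these comparisons, where 3.95%, 1.8% and 2.96% of all genes were called lower. The calls therefore concern Prox1 and not the 8 genes as a list, and they do not show that the other members were unchanged. The median log2 fold change of the 8 was -0.15 in duodenal, -0.16 in jejunal and -0.42 in ileal nodes. An unadjusted p under 0.05 was found for 3, 1 and 3 members in those nodes, Prox1 included.

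In ileal nodes Prox1 had 30.9, 37.1, 21.0, 28.6 and 31.7 CPM in deficient replicates 1 to 5, against 75.0, 68.0, 54.9, 68.7 and 33.5 CPM in sufficient replicates 1 to 5. The deficient libraries lay below 4 of the 5 sufficient ones, and the male sufficient replicate 5 fell among them. The means were 29.9 ± 5.8 CPM in deficient and 60.0 ± 16.5 CPM in sufficient ileal nodes (SD, n = 5), and the log2 fold change was -1.23 ± 0.17 (adjusted p = 1.78e-06). Jejunal nodes held 25.0, 32.3, 26.6, 24.9 and 26.8 CPM in deficient mice, against 50.1, 43.6, 39.4, 30.5 and 37.4 CPM in sufficient mice (-0.79 ± 0.17, adjusted p = 0.00241). Duodenal nodes held 14.9, 20.0, 18.7, 12.2 and 21.2 CPM in deficient mice, against 34.3, 31.6, 21.9, 28.6 and 19.4 CPM in sufficient mice (-0.86 ± 0.17, adjusted p = 6.25e-04). In each of the 3 nodes 1 male sufficient library fell inside the deficient range and the other 4 lay above it.

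In colonic nodes Prox1 had 20.9, 21.8, 14.2, 21.9 and 24.6 CPM in deficient mice, against 27.1, 26.3, 21.1, 21.4 and 17.9 CPM in sufficient mice (-0.37 ± 0.17, adjusted p = 0.327). In inguinal nodes it had 9.43, 15.9, 13.5, 12.4 and 16.9 CPM in deficient mice, against 18.5, 14.1, 14.9, 14.1 and 12.1 CPM in sufficient mice (-0.35 ± 0.18, adjusted p = 0.452). The groups overlapped widely in both. The fall in gut-draining nodes was not shown to differ from that in inguinal nodes (interaction -0.47 ± 0.19, adjusted p = 0.288), nor that in duodenal from that in ileal nodes (interaction 0.37 ± 0.22, adjusted p = 0.608). Over the 3 interactions, 0 of 24 values of the 8 genes passed by edgeR and 0 by DESeq2, and the unadjusted p was under 0.05 for 1, 6 and 3 members in the gut-draining over inguinal, small intestinal over colonic and duodenal over ileal interactions. The gut-draining over inguinal interaction called 0.919% of all genes.

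Sex and diet are partly confounded here, and the sufficient libraries of the 2 sexes were not alike in Prox1. The Prox1 mean in ileal nodes was 29.9 CPM in deficient females, 71.5 CPM in sufficient females and 52.4 CPM in sufficient males. Among females alone the 5 deficient and 2 sufficient libraries did not overlap in duodenal (at most 21.2 against at least 31.6 CPM), jejunal (32.3 against 43.6 CPM), ileal (37.1 against 68.0 CPM) and colonic nodes (24.6 against 26.3 CPM), and overlapped in inguinal nodes. The share of all genes separated in this way was not counted, so lack of overlap with 2 libraries does not by itself set Prox1 apart. Fitted on females alone, the log2 fold change of Prox1 was -0.92 in duodenal (adjusted p = 0.00833), -0.79 in jejunal (adjusted p = 0.0409) and -1.25 in ileal nodes (adjusted p = 3.6e-04). Without a term for sex it was -0.57 in jejunal nodes and did not pass (adjusted p = 0.0571). Without the low Gm19220 libraries the 3 values were -0.90, -0.79 and -1.20, and without the high pancreatic libraries -0.90, -0.79 and -1.21, all of them called.

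**Figure D3:**
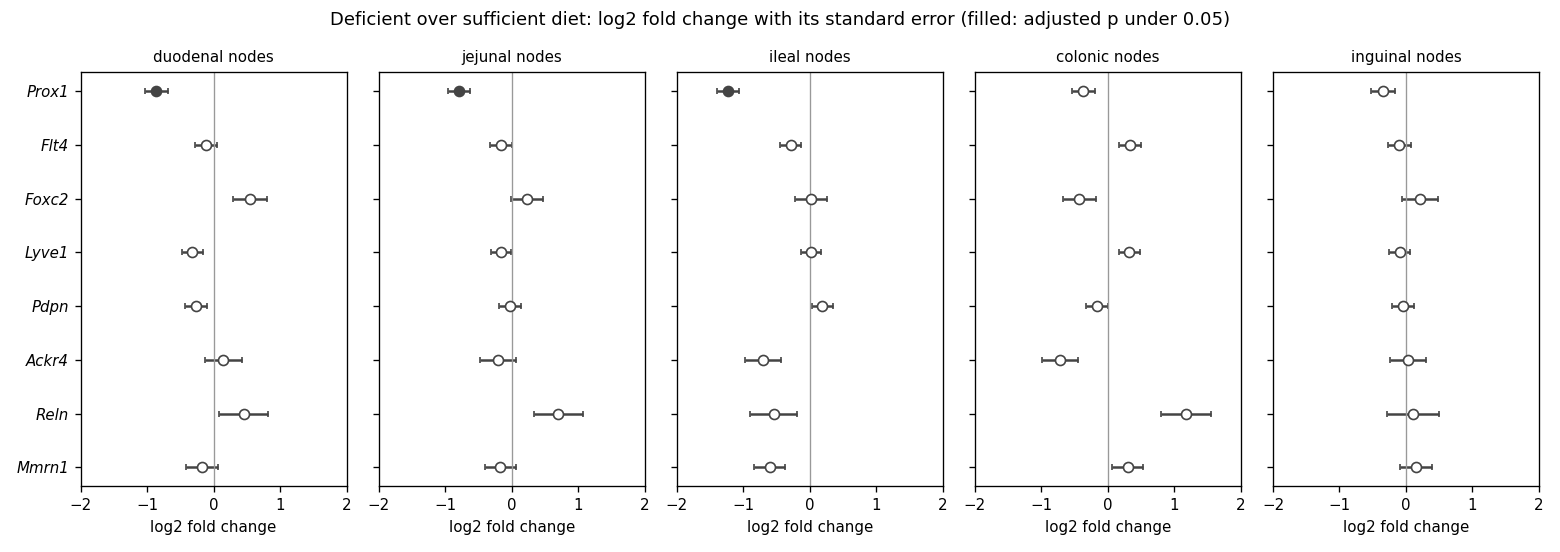
Log2 fold change of the 8 genes for the deficient over the sufficient diet in each of 5 nodes (points; bars are 1 standard error), filled where the adjusted p is under 0.05. Prox1 is filled in duodenal (-0.86), jejunal (-0.79) and ileal nodes (-1.23), and no other point is.

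The other 7 members did not pass in any node. Flt4 averaged 91.2 ± 12.3 CPM in deficient and 98.8 ± 18.5 CPM in sufficient ileal nodes (-0.29 ± 0.16, adjusted p = 0.358), and Lyve1 averaged 271 ± 64 CPM in deficient and 270 ± 32 CPM in sufficient ileal nodes (0.02 ± 0.15, adjusted p = 0.971). Mmrn1 averaged 36.6 ± 7.5 CPM in deficient and 51.6 ± 14.2 CPM in sufficient ileal nodes (-0.61, adjusted p = 0.128). Reln, the reelin gene, had 12.4 to 25.7 CPM in deficient and 26.2 to 70.0 CPM in sufficient ileal nodes, groups that did not overlap, yet with the term for sex its fold change was -0.54 ± 0.35 (adjusted p = 0.456). In colonic nodes Reln had 11.4 to 23.9 CPM in deficient and 4.49 to 17.4 CPM in sufficient mice (1.17 ± 0.38, adjusted p = 0.0871), and it passed without deficient replicate 5 (adjusted p = 0.0475). Ackr4, the chemokine scavenger, had 7.26 to 8.92 CPM in deficient and 9.72 to 20.3 CPM in sufficient colonic nodes, again without overlap (-0.72 ± 0.27, adjusted p = 0.166). The share of all genes without overlap was not counted, so lack of overlap alone does not set Reln or Ackr4 apart. In ileal nodes Ackr4 had -0.70 ± 0.27 (adjusted p = 0.132) and passed without the term for sex (adjusted p = 0.0422) or without sufficient replicate 2 (adjusted p = 0.0419). Colonic and inguinal nodes had 0 of 8 members called by edgeR and 0 by DESeq2, where 2.22% and 0.838% of all genes were called, and 4 and 0 members had an unadjusted p under 0.05.

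Whether Prox1 moved differently from the other lymphatic genes was examined through its ratio to Flt4, its partner in the loop described above, and to Lyve1. This measure was chosen after the Prox1 values had been seen, so it describes these libraries and is not separate evidence. Only differences in the log2 ratio between groups are read, since CPM is not corrected for gene length. The Prox1 over Flt4 log2 ratio averaged -1.61 ± 0.25 in deficient and -0.75 ± 0.22 in sufficient ileal nodes, a difference of -0.86. The difference was -0.68 in duodenal, -0.57 in jejunal and -0.65 in colonic nodes. In each of the 4 gut-draining nodes the 5 deficient libraries lay below the 5 sufficient ones, which gives the smallest p that a two-sided exact permutation test of 5 against 5 allows, 0.00794, or 0.0159 after Benjamini-Hochberg adjustment over 10 ratios. In inguinal nodes the groups overlapped (difference -0.18, exact permutation p = 0.365, adjusted p = 0.406). The colonic ratio does not show a fall of Prox1 itself, which was not called there. Colonic Prox1 averaged 20.7 CPM in deficient and 22.7 CPM in sufficient mice, while Flt4 averaged 50.9 CPM and 36.5 CPM.

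Against Lyve1 the Prox1 ratio was lower in deficient ileal nodes by a log2 difference of -0.96 (exact permutation p = 0.0159, adjusted p = 0.0265) and in deficient colonic nodes by -0.45 (exact permutation p = 0.00794, adjusted p = 0.0159). The difference was -0.32 in duodenal (exact permutation p = 0.103, adjusted p = 0.129), -0.38 in jejunal (exact permutation p = 0.0794, adjusted p = 0.113) and 0.01 in inguinal nodes (exact permutation p = 0.944). These tests ignore sex. Colonic Lyve1 averaged 156 CPM in deficient and 126 CPM in sufficient mice, so that ratio also holds a higher denominator. Among females alone the Prox1 over Flt4 difference was -0.78, -0.64, -0.98, -0.51 and -0.40 in duodenal, jejunal, ileal, colonic and inguinal nodes. The Prox1 over Lyve1 difference among females was -0.55, -0.72, -1.34, -0.55 and -0.23 in the same nodes, and the 5 deficient and 2 sufficient females did not overlap in the 4 gut-draining nodes.

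**Figure D4:**
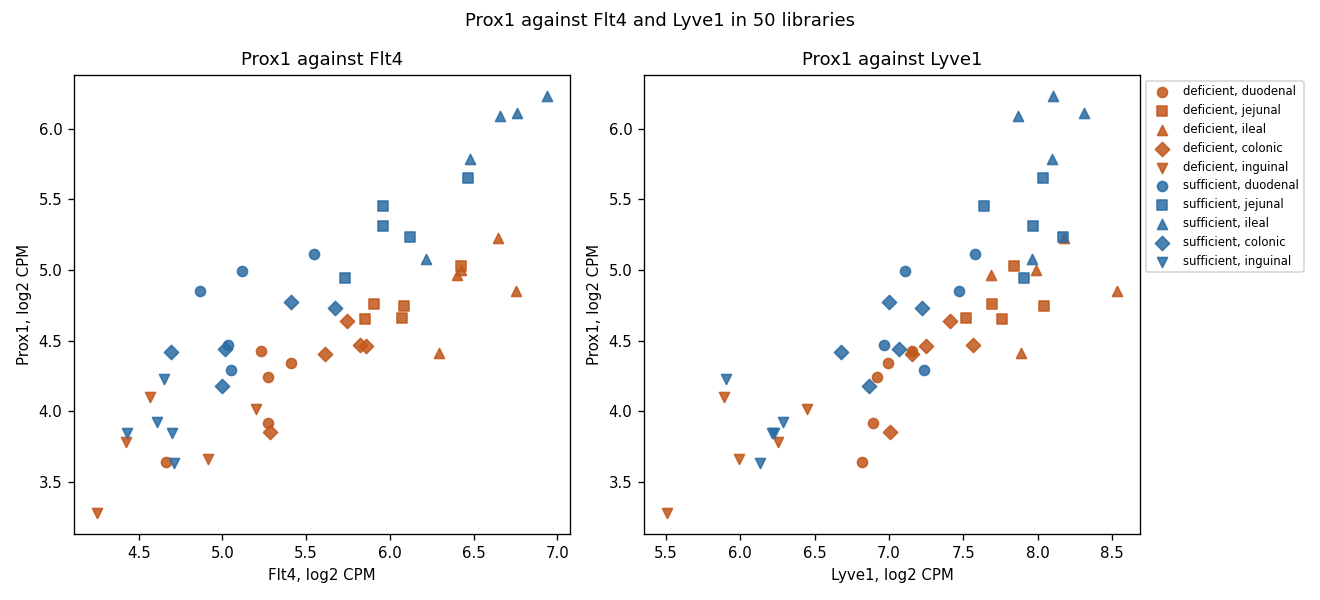
Prox1 against Flt4 (left) and against Lyve1 (right), log2 CPM on both axes, in 50 libraries coloured by diet (deficient orange, sufficient blue) and shaped by node. In the left panel the deficient libraries of each gut-draining node lie below the sufficient ones at a like Flt4 level; inguinal libraries of both diets mix.

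Other contents of ileal nodes also differed by diet. The macrophage sum was 2223 to 3100 CPM in deficient and 3138 to 4129 CPM in sufficient ileal nodes, and the blood endothelial sum was 839 to 1051 CPM in deficient and 1052 to 1274 CPM in sufficient ileal nodes, so neither overlapped. Within the macrophage list 1 of 11 tested genes was higher and 3 were lower, and within the blood endothelial list 1 of 10 was higher and 1 lower. Of all genes, 2.74% were called higher and 2.96% lower in ileal nodes. Of 8 T cell genes, 6 were higher in deficient ileal nodes. In duodenal nodes the macrophage sums overlapped (1385 to 1790 CPM in deficient, 1651 to 2013 CPM in sufficient), as did the blood endothelial sums. The part of these contents in the lower Prox1 was not tested, and Lyve1 and Flt4 were measured in the same libraries with the values above.

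Genes that act around the 8 members were counted from 4 lists, which hold no member and share Kdr, Cdh5, Itga9, Marco and a few others with one another or with the cell type lists. Calls of these list genes come from the main fit and were not examined under the alternatives. Of 17 genes of the VEGF-C axis and lymphatic growth, 5 rose and 0 fell in gut-draining nodes, set against inguinal ones, on the deficient diet. On the sufficient diet 9 were higher and 0 lower. Of all genes, 3.71% and 9.69% were called higher in this comparison on those diets. The integrin Itga9, a receptor for matrix ligands in lymphatic valves, rose on both (1.17 ± 0.17, adjusted p = 2.34e-06 deficient, and 1.40 ± 0.17, adjusted p = 4.84e-08 sufficient), as did the ligand Vegfd (1.55 ± 0.22, adjusted p = 2.45e-06 deficient, and 1.68 ± 0.24, adjusted p = 9.31e-07 sufficient). Kdr, the receptor VEGFR2, rose by 0.61 ± 0.11 on the deficient and 1.06 ± 0.11 on the sufficient diet. In small intestinal against colonic nodes 1 of 17 was higher on the deficient and 7 of 17 on the sufficient diet. Of all genes, 1.27% and 2.65% were called higher there. In duodenal against ileal nodes 6 of 17 were lower on each diet and 0 higher, where 2.7% and 5.03% of all genes were called lower. The median of the list was 0.29 and 0.48 in the gut-draining comparison of deficient and sufficient mice, and -0.40 and -0.47 in the duodenal over ileal one, against -0.01 and 0.01 over all genes in those comparisons.

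By diet, VEGF-C axis genes went both ways. In ileal nodes of deficient mice 4 of 17 fell and 1 rose, where 2.96% of all genes were called lower and 2.74% higher. The co-receptor Nrp2, which binds VEGF-C beside Flt4, averaged 80.6 CPM in deficient and 106 CPM in sufficient ileal nodes (-0.52 ± 0.10, adjusted p = 4.5e-04), and Kdr averaged 133 CPM in deficient and 208 CPM in sufficient ileal nodes (-0.80 ± 0.14, adjusted p = 1.14e-04). Angpt2, a ligand of the receptor Tek, was the 1 that rose, to 58.0 CPM in deficient ileal nodes, against 17.7 CPM in sufficient ones (1.91 ± 0.26, adjusted p = 2.32e-06). Duodenal nodes had 3 lower and 1 higher, where 3.95% of all genes were called lower and 6.19% higher. Among them were Nrp2 at -0.37 ± 0.10 (adjusted p = 0.013), Kdr at -0.47 ± 0.14 (adjusted p = 0.0198) and Vegfd at 0.88 ± 0.27 (adjusted p = 0.0296). In jejunal nodes, where 1.8% of all genes were called lower, 2 were lower. They were Nrp2 at -0.44 ± 0.10 (adjusted p = 0.00553) and the angiopoietin receptor Tek at -0.60 ± 0.17 (adjusted p = 0.0266). In colonic nodes 1 rose (Angpt2, 1.19 ± 0.28, adjusted p = 0.0113), where 1.28% of all genes were called higher. In inguinal nodes none of the 17 was called, where 0.838% of all genes were.

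Transcription factors of lymphatic specification (15 tested) were also counted by diet. In deficient duodenal nodes 4 rose and 0 fell, where 6.19% of all genes were called higher, and in jejunal nodes 3 rose and 0 fell, where 2.75% were. Sox18, which switches Prox1 on in mouse embryos, averaged 29.5 CPM in deficient and 17.4 CPM in sufficient duodenal nodes (0.92 ± 0.20, adjusted p = 0.00141), and 38.6 CPM in deficient and 27.7 CPM in sufficient jejunal nodes (0.64 ± 0.19, adjusted p = 0.0441). The flow-responsive factor Klf2 rose in duodenal (0.48 ± 0.12, adjusted p = 0.00686), jejunal (0.46 ± 0.12, adjusted p = 0.0163) and ileal nodes (0.49 ± 0.12, adjusted p = 0.00757). In ileal nodes, where 2.74% of all genes were called higher and 2.96% lower, 2 rose and 2 fell. The falls were in Tal1, a blood and endothelial factor (-1.04 ± 0.27, adjusted p = 0.0106) and in Nr2f2, the nuclear receptor COUP-TFII that acts with Sox18 upstream of Prox1 in mouse embryos (-0.59 ± 0.16, adjusted p = 0.0157). In colonic nodes Prdm1, a transcriptional repressor that plasma cells also express, rose (1.07 ± 0.26, adjusted p = 0.0144), and in inguinal nodes none of the 15 was called. Across nodes, 2 of 15 were higher and 2 lower in gut-draining nodes on the deficient diet, with 6 and 2 on the sufficient diet. Of all genes, 3.71% were called higher and 2% lower there on the deficient diet, and 9.69% and 7.22% on the sufficient diet. In duodenal nodes 4 and 9 were lower than in ileal nodes on those diets, where 2.7% and 5.03% of all genes were. Tbx1 led (-1.29 ± 0.19, adjusted p = 5.32e-06 deficient, and -1.67 ± 0.19, adjusted p = 7.04e-08 sufficient).

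Of 14 genes of lymphatic valves and collecting vessels, 4 were higher in gut-draining nodes on the deficient and 6 on the sufficient diet, with 0 lower. Of all genes, 3.71% and 9.69% were called higher on those diets. The tight junction gene Cldn11 rose by 0.60 ± 0.12 on the deficient (adjusted p = 5.07e-04) and 1.13 ± 0.12 on the sufficient diet (adjusted p = 2.96e-09), and the matrix gene Emilin1 by 0.62 ± 0.15 (adjusted p = 0.00423) and 1.00 ± 0.15 (adjusted p = 2.46e-06). Duodenal nodes had 2 lower than ileal nodes on the deficient and 6 on the sufficient diet, where 2.7% and 5.03% of all genes were. By diet, Gja1, a gap junction protein, was lower in deficient duodenal nodes (-0.91 ± 0.30, adjusted p = 0.0423) and Emilin1 in deficient ileal nodes (-0.64 ± 0.19, adjusted p = 0.033).

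Of 20 genes of node sinus endothelium, 18 were tested, and 7 were higher and 1 lower in gut-draining nodes on the deficient diet. On the sufficient diet 10 were higher and 0 lower. Of all genes, 3.71% were called higher and 2% lower on the deficient diet, and 9.69% higher on the sufficient diet. Marco, a scavenger receptor of medullary sinus cells that macrophages also carry, averaged 838 CPM over deficient gut-draining and 213 CPM in deficient inguinal nodes (1.90 ± 0.16, adjusted p = 6.21e-12). By diet the ileal node had 7 lower and 0 higher, where 2.96% of all genes were called lower. Csf1, the macrophage growth factor, averaged 79.9 CPM in deficient and 157 CPM in sufficient ileal nodes (-0.99 ± 0.13, adjusted p = 1.78e-06). In the main fit the fall of Csf1 was larger there than in duodenal nodes (interaction of duodenal over ileal 0.78 ± 0.18, adjusted p = 0.0417). That interaction called 41 genes in the main fit, 0 on females only and 138 by DESeq2. Csf1 itself was not examined under the alternatives. Tnfsf11, encoding the cytokine RANKL, averaged 11.3 CPM in deficient and 23.8 CPM in sufficient ileal nodes (-0.99 ± 0.17, adjusted p = 9.27e-05). Tnfsf11 was also lower in deficient duodenal (-0.95 ± 0.17, adjusted p = 9.43e-05), jejunal (-0.78 ± 0.17, adjusted p = 0.00285) and colonic nodes (-0.84 ± 0.17, adjusted p = 0.00328).

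The 8 members rose and fell together across all libraries but much less within a group. Over 50 libraries all 28 pairs had a positive Pearson correlation of log2 CPM, from 0.28 to 0.91 with a median of 0.56. These points share nodes and diets, and after subtracting each group's mean the median was 0.24, with 25 of 28 pairs above 0. The pair of highest r was Flt4 with Lyve1 (0.91 over libraries, 0.57 within groups). Prox1 kept 0.68 with Flt4 and 0.55 with Mmrn1 within groups, whereas with Reln it had 0.51 over libraries and -0.24 within groups. Group means did not separate the sexes, so these deviations also hold the difference between sufficient females and males. In each node mean Prox1 was higher in sufficient females and mean Reln in sufficient males. In ileal nodes of sufficient females and males, Prox1 averaged 71.5 and 52.4 CPM, and Reln 31.0 and 48.8 CPM.

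**Figure D5:**
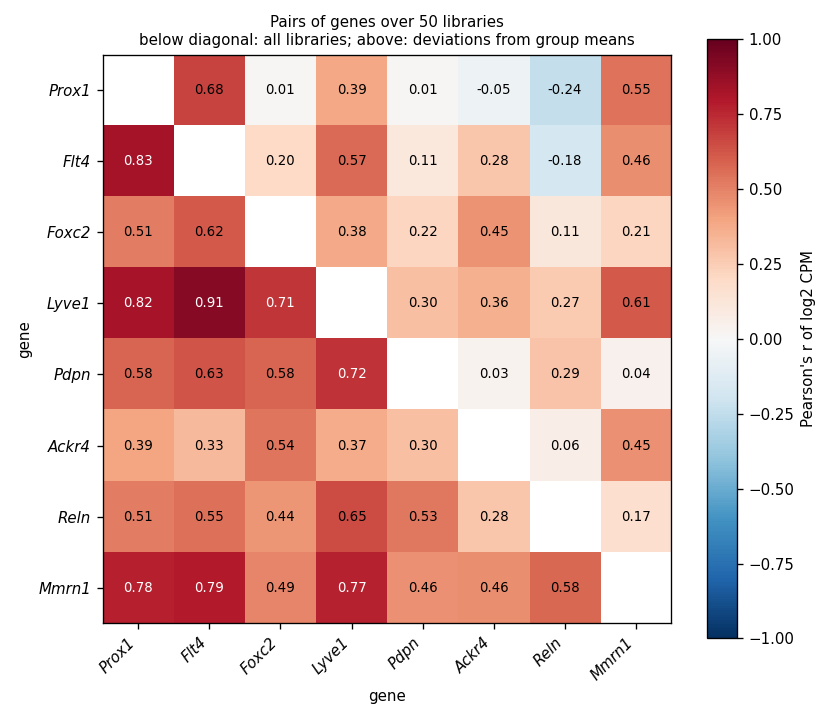
Pearson's r of log2 CPM for each pair of the 8 genes over 50 libraries, all libraries below the diagonal and deviations from group means above it. Values below run from 0.28 to 0.91, and those above from -0.24 (Prox1 with Reln) to 0.68 (Prox1 with Flt4).

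Genes with the most similar profile were taken for each member as the 3 with the highest r over 50 libraries, and r over the 10 group means follows in brackets. For Prox1 they were F8, coagulation factor VIII, at 0.93 (0.96), Kdr at 0.92 (0.97) and Inpp4a, a phosphoinositide phosphatase, at 0.90 (0.98). For Flt4 they were the netrin receptor Unc5b at 0.95 (0.98), the scavenger receptor Stab2 at 0.94 (0.97) and Itga9 at 0.94 (0.97). For Lyve1 they were Stab2 at 0.92 (0.96), Xlr5c at 0.92 (0.96) and Phldb2 at 0.91 (0.96). Xlr5c, and its near copy Xlr5a, also led for Pdpn at 0.78 (0.92) and 0.77 (0.92), and counts of such near-identical genes are uncertain.

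For the other members the highest r was below those of Prox1, Flt4 and Lyve1. Mmrn1 was closest to Clca3a1 at 0.83 (0.95), Timp3 at 0.82 (0.93) and Gng12 at 0.81 (0.94). Foxc2 was closest to the crosslinking enzyme gene Loxl1 at 0.80 (0.94), the immunoglobulin gene Igha at 0.78 (0.92) and Marco at 0.77 (0.88). Reln was closest to Ramp2, a subunit of the adrenomedullin receptor, at 0.78 (0.91), and Ackr4 to Pard6g at 0.65 (0.79).

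Within groups the members differed in how they ran with other cell types. These deviations, too, hold the difference between the sexes in sufficient groups. The macrophage sum had a within-group r of 0.62 with Lyve1, 0.57 with Pdpn and 0.46 with Reln, against -0.05 with Prox1. The blood endothelial sum had 0.51 with Flt4, 0.50 with Lyve1 and 0.15 with Prox1. With the fibroblastic reticular sum, Pdpn had 0.36 and Prox1 -0.12. The T cell sum ran opposite to all 8, with r from -0.61 for Flt4 to -0.04 for Reln. Prox1 had its largest within-group r, in size, with the pancreatic (-0.47), high endothelial venule (0.42) and T cell sums (-0.41). For Mmrn1 the platelet list is of little use, since 5 of its 8 genes (Ppbp, Gp9, Gp1bb, Treml1 and Gp6) fell below the filter on low counts, and its sum had a within-group r of -0.11 with Mmrn1.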

How the data were processed

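RNA of 50 lymph node libraries was sequenced after poly(A) selection, per the labels' protocols. The authors deposited estimated counts per gene in 1 table of 56600 entries, 379 without a gene name. Without role or version, kallisto, edgeR and limma appear in the submitters' processing notes, as do mm10 and GRCm39. Columns of deficient libraries carry the word 3rd, unexplained in the sources used here, and were assigned by elimination, since the other 25 are named control. Libraries totalled 5335369 to 8904722 estimated counts, and counts as low as those of Foxc2 limit precision.

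Estimated counts were rounded, filtered with filterByExpr (18387 genes kept) and scaled by TMM (edgeR 4.0.16, R 4.3.3). One quasi-likelihood model with a mean per diet and node and a sex term covered all libraries. The sex term rests on sufficient libraries. Benjamini-Hochberg adjustment ran over all genes tested in a comparison, threshold 0.05. Standard errors derive from the F statistic. Correlations used log2 CPM with a prior count of 2. Fits were checked on simulated counts. Members, lists and alternatives were chosen with earlier results of these data known. Named genes are the 8 members, up to 3 genes per list and comparison with the smallest adjusted p, and the 3 most similar genes per member. Alternatives used limma 3.58.1, DESeq2 1.42.0, other scaling and filters, no sex term, females only, a replicate block, and fewer libraries. Figures used matplotlib 3.10.9.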

Additional observations from a re-analysis of the deposited data

Results flagged for a closer look

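Of 80 groups of 5 libraries (8 genes, 10 groups), 4 held a library far from the other 4, about the number that chance gives, since it sets 1 in 20 groups apart. Prox1 was highest in deficient jejunal replicate 2 (32.3 CPM, the others 24.9 to 26.8 CPM). Flt4 was lowest in deficient duodenal replicate 4 (25.0 CPM, the others 37.3 to 42.2 CPM), a library with 19.1% of its counts in pancreatic genes. Pdpn was lowest in sufficient jejunal replicate 2 (8.05 CPM, the others 11.5 to 12.5 CPM). Reln was highest in deficient inguinal replicate 3 (15.0 CPM, the others 5.46 to 7.3 CPM).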

How the results depend on the processing

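Under 21 alternatives, the 29 called values of the members gave 609 values, of which 572 kept direction and call, 37 kept direction without passing and 0 turned round. The 83 uncalled values gave 18 calls in 1743. On females only, where each sufficient group has 2 libraries, the 3 node comparisons of sufficient mice called 5 member values in place of 16, and the 10 node pairs 16 in place of 39; fewer samples are part of that setting. The other counts of members stayed within 1.5 times. Over all genes the ileal diet comparison called 1048 genes, against 367 on females only and 1343 without a sex term, the jejunal one 837 against 264 on females only, and the duodenal one 1864 against 592 without the high pancreatic libraries. Members called in the 3 deficient node comparisons numbered 10 in the main analysis and 7 without the low Gm19220 libraries. The diet calls of Prox1 kept their direction in all 21, from -0.94 to -0.64 in duodenal, -0.89 to -0.57 in jejunal nodes and down to -1.32 in ileal nodes, and missed the threshold once, in jejunal nodes without a sex term. Leaving out each replicate number in turn gave 13 to 18 calls in the sufficient node comparisons and 10 to 11 in the deficient ones. Replicate numbers are not tied to mice by the labels: same-numbered libraries of a diet had a median correlation of deviations of 0.0996 (deficient) and 0.164 (sufficient), and 19 of 25 libraries in each diet correlated best with their own number. With a fixed block of diet and replicate number, 11 deficient and 18 sufficient node calls passed. For the diet comparisons the fixed term was the number alone, shared by both diets, so it does not stand for a mouse. Under it 3 diet calls passed. With a random block of diet and replicate number in limma-voom, 10 deficient and 16 sufficient node calls and 3 diet calls passed. The fixed block also called Mmrn1 in deficient duodenal over ileal (-0.61, adjusted p = 0.0432) and sufficient small intestinal over colonic nodes (0.59, adjusted p = 0.0232), and Reln in the same sufficient comparison (0.98, adjusted p = 0.04). Foxc2, at 5.95 to 24.0 counts per library, is limited most by depth.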
